A study of Mus musculus with 18 samples.

Results

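The stress keratins and the calprotectin genes are described here in the skin of mice that lost Rbpj or Notch1. The genes were chosen by name: the keratins Krt6a, Krt6b, Krt16 and Krt17, and the calcium-binding proteins S100a8 and S100a9. All 6 were found among the 21011 genes of the count table, and 5 of them passed the filter on low counts; S100a8 did not. The study deleted Notch pathway genes in mouse skin with tamoxifen-activated Cre and measured poly(A) RNA in 18 mice, 1 library per mouse.

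In KR mice (n = 4, numbered 1, 3, 4 and 5) Rbpj was deleted with K14-CreERT, a driver active in the basal layer of the epidermis. In LR mice (n = 3, numbered 1, 2 and 3) Rbpj was deleted with Lrig1-CreERT2, driven from a gene of stem cells in the upper hair follicle, so surface epidermis outside that compartment is not targeted directly. In KN1 mice (n = 4, numbered 1 to 4) Notch1 was deleted with a driver that the labels spell K14-CreERT1. The controls came from the batch of their mutant: KR controls 4 and 6, LR controls 2, 3 and 5, and KN1 controls 1 and 7. The labels name these mice as controls and give no genotype for them. Tamoxifen was given at 8 weeks of age, and dorsal skin was taken 10 weeks later, in telogen, when hair growth rests. The epidermal side was scraped off after trypsin, so the RNA comes from surface epidermis together with the follicle cells that came away with it. In such bulk samples, fewer cells of a type and less RNA per cell cannot be told apart.

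Keratins are filament proteins that assemble as pairs of a type I and a type II chain. Krt6a and Krt6b are type II chains, and Krt16 and Krt17 are the type I chains they pair with. In resting skin these keratins are known from hair follicles and from the thick epidermis of the paws, and the surface epidermis between follicles switches them on after wounding or during hyperproliferation. S100a8 and S100a9 form calprotectin, which is stored in large amounts in neutrophils and is made by keratinocytes in inflamed skin.

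Libraries held between 8076316 and 21216169 counts in total. KR control 4 and KN1 control 1 were the deepest, and by their labels each joins reads of separate sequencing occasions. Notch1 was lower in KN1 mice, with 105, 156, 81.9 and 107 CPM (counts scaled to library size) in KN1 mice against 251 and 172 CPM in their controls. The difference was -0.91 ± 0.19 on the log2 scale (SE), with an adjusted p of 0.0251 (edgeR quasi-likelihood test, Benjamini-Hochberg, as for all adjusted p-values here unless DESeq2 is named). That call was lost without KN1 mouse 4 (adjusted p = 0.0758) and with the KN1 batch fitted alone (-0.89, adjusted p = 0.142). It was also lost without KN1 control 1 or KN1 control 7, where the log2 value was -0.62 and -1.17. Rbpj was lower in every KR mouse than in both controls and in every LR mouse than in all 3 controls, with log2 values of -0.47 in KR and -0.66 in LR that did not pass (adjusted p = 0.135 and 0.0659). In KN1, where another gene was deleted, Rbpj was also lower in all 4 mutants than in both controls, at -0.34 (adjusted p = 0.310). As the mean of the 3 effects, KN1 included, Rbpj gave -0.49 (adjusted p = 0.00329), where 21.7% of all genes tested passed. A whole-gene count need not show the loss of an exon, which leaves the KR and LR labels unchecked by Rbpj. Of the 10 keratinocyte markers examined, all were present, with summed levels of 40451 to 65110 CPM in mutants and 48518 to 66982 CPM in controls.

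The genes lie in 3 adjacent pairs in the GENCODE M21 annotation of GRCm38, the assembly also called mm10, and all are protein coding. Krt6a (15:101689910-101694307, minus strand) and Krt6b (15:101676023-101680287, minus strand) are 9622 bases apart. Krt16 (11:100246091-100248902, minus strand) and Krt17 (11:100256217-100261029, minus strand) are 7314 bases apart. S100a8 (3:90668978-90670035, plus strand) and S100a9 (3:90692632-90695721, minus strand) are 22596 bases apart. No other protein-coding gene lies within any of these gaps.

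Krt6a and Krt6b are near copies, which bears on every value of theirs below. Their coding sequences of 1659 and 1662 bases were identical at 97.8% of aligned bases, with 37 mismatches and a longest identical run of 280 bases. A read that falls within such a run cannot be assigned to either gene, and the sources used here do not say whether it was dropped or split. The pair of stretches below shows where reads can tell them apart: it is the 60-base coding window with the most mismatches, 10, in exon 4 of both genes, from the GENCODE transcripts, with the bases that differ in capitals. The windows lie at 15:101692484-101692543 and 15:101678303-101678362 of GRCm38, minus strand.
Krt6a: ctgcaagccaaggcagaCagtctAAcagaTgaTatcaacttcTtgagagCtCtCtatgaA
Krt6b: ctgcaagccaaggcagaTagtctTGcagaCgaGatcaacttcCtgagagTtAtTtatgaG

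Over whole transcripts, 43.6% of the 50-base windows, 29.5% of the 100-base windows and 18.5% of the 150-base windows of Krt6a occurred unchanged in Krt6b. Krt16 shared 12.4% of its 50-base windows and 3.14% of its 100-base windows with Krt14, the far more abundant basal keratin, and none of its 150-base windows. S100a8 and S100a9 shared no such window. Reads from opposite strands may also have been mixed, because the use of strand in counting is not given. A miRNA gene on the opposite strand inside Krt6a, Gm44342, was listed with counts equal to 4.18% to 8.18% of those of Krt6a in all 18 mice.

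**Figure D1:**
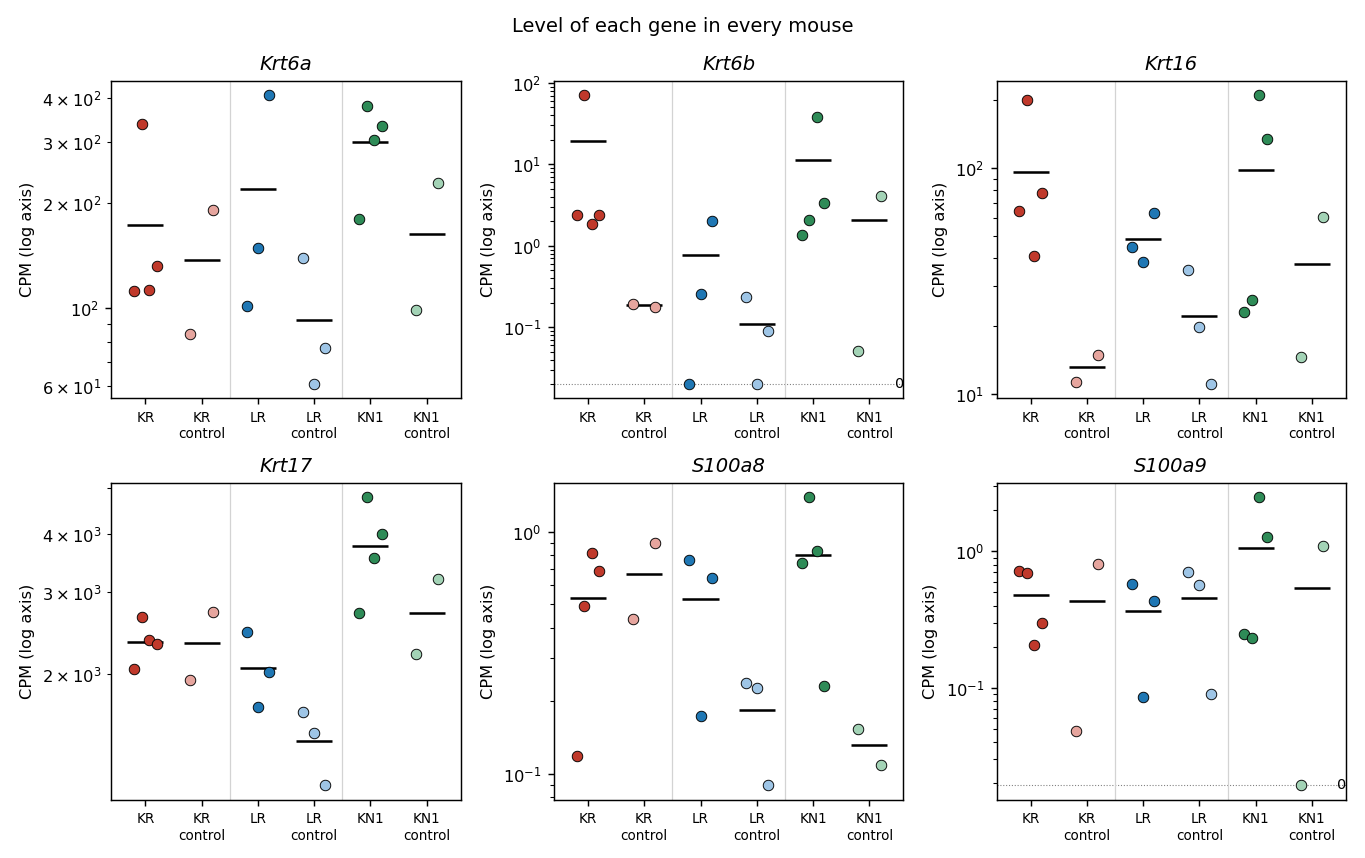
Level of each gene in every mouse, in CPM on log axes, with 1 point per mouse in each mutant beside its own controls and a bar at the group mean; points on the dotted line had a count of 0. Every KR mouse lies above both of its controls for Krt16 and Krt6b (as for 19.0% of all genes tested), and S100a8 and S100a9 stay at or under 2.49 CPM in every mouse.

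Krt16 was the 1 gene of the 6 that was higher in every KR mouse than in both KR controls and in every LR mouse than in all LR controls. Of all genes tested, 19.0% were higher in every KR mouse and 10.3% in every LR mouse. The share that did both was not counted. Krt16 is a type I keratin widely used as a sign of activated keratinocytes. Its level was 64.7, 201, 41.0 and 77.5 CPM in KR mice 1, 3, 4 and 5, against 11.3 and 14.9 CPM in the KR controls. The lowest KR mouse stood well above the higher control, and KR mouse 3 stood above the other KR mice. The log2 fold change was 2.89 ± 1.06 (SE, fold change 7.39), with an unadjusted p of 0.0175 and an adjusted p of 0.142, so Krt16 did not pass the threshold of 0.05 in KR. DESeq2, run as an alternative, gave 2.88 with an adjusted p of 0.0243, while calling 1086 genes where edgeR called 264.

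In LR, Krt16 had 44.8, 38.5 and 63.1 CPM in LR mice 1, 2 and 3, against 35.5, 19.8 and 11.1 CPM in LR controls 2, 3 and 5. The groups did not overlap, but LR mouse 2 and LR control 2 lay close together. In log2 terms Krt16 differed by 1.15 ± 0.88 (adjusted p = 0.573). In KN1, the level was 23.1, 25.9, 211 and 135 CPM in KN1 mice 1 to 4, against 14.6 and 60.6 CPM in KN1 controls 1 and 7. KN1 mice 3 and 4 lay above both controls, and KN1 mice 1 and 2 lay between them. This made a log2 fold change of 1.41 ± 0.96 (adjusted p = 0.461), which was 0.70 without KN1 control 1 and 2.75 without KN1 control 7.

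Taken as the mean of the 3 mutant effects, each against its own controls, Krt16 was higher by 1.82 ± 0.56 on the log2 scale (fold change 3.52, adjusted p = 0.0354). It was the 1 stress keratin or calprotectin gene of the 5 tested that passed in that comparison, in which 21.7% of all genes tested passed, so 1 of 5 is near the background. The mean is made from the same mice as the 3 comparisons and is not independent of them. The call was lost when 1 of 8 mice was left out: without KR control 4 (adjusted p = 0.1001), KR control 6 (0.0958), KN1 control 1 (0.0897), LR mouse 3 (0.0665), LR control 5 (0.0614), LR control 3 (0.0557), KN1 mouse 4 (0.0549) or KR mouse 3 (0.0515). Over the omission of each mouse in turn, the log2 value stayed between 1.58 and 2.25.

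Krt6b, a type II keratin with little RNA in the controls, was higher in every KR mouse than in both controls (as were 19.0% of all genes tested), and KR mouse 3 and KN1 mouse 3 stood far above all other mice. It had 2.37, 70.1, 1.84 and 2.37 CPM in KR mice 1, 3, 4 and 5, from counts of 20, 708, 18 and 24, against 0.193 and 0.180 CPM in the KR controls, from counts of 4 and 2. KR mouse 3 thus had many times the level of the other KR mice, which in turn stood clear of the controls. The log2 fold change of 6.59 ± 2.71 (unadjusted p = 0.0307, adjusted p = 0.178) did not pass. Without KR mouse 3 it was 3.46, and the other omissions gave values up to 6.97.

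In LR mice 1, 2 and 3, Krt6b had counts of 0, 3 and 19, against 2, 0 and 1 in the LR controls. LR mouse 3 stood clear of the controls, LR mouse 2 lay 1 count above the highest of them, and LR mouse 1 had no count. Summed per read sequenced, 22 counts against 3 make a ratio of 6.86 with an exact 95% interval of 2.06 to 35.8, which covers counting error only; the fitted log2 change was 2.65 ± 3.55 (adjusted p = 0.776). Both rest on LR mouse 3: without it 3 counts face 3, and the fitted change was 0.33. In KN1, Krt6b had 1.36, 2.08, 38.3 and 3.33 CPM in KN1 mice 1 to 4, against 0.0510 and 4.12 CPM in KN1 controls 1 and 7. KN1 control 7 lay above 3 of the 4 KN1 mice, so the groups overlap, and the log2 fold change was 2.61 ± 2.04 (adjusted p = 0.523). Without KN1 mouse 3 it was 0.30, and without KN1 control 7 it was 7.47. As the mean of the 3 effects Krt6b gave 3.95 ± 1.58 (adjusted p = 0.0914).

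**Figure D2:**
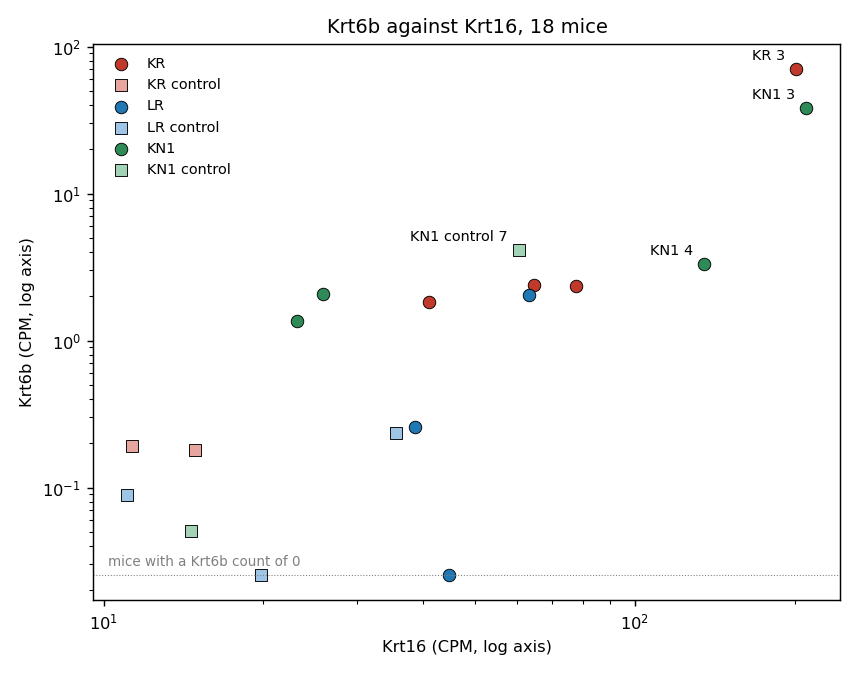
Krt6b against Krt16 in each of the 18 mice, in CPM on log axes, with circles for mutants and squares for their controls; points on the dotted line had a Krt6b count of 0. KR mouse 3 and KN1 mouse 3 sit at the upper right with 201 and 211 CPM of Krt16, and KN1 control 7 lies among the mutants.

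The share of Krt6b in the Krt6 pair was higher in all 4 KR mice than in both KR controls, and highest in KR mouse 3 and KN1 mouse 3. Krt6b made up 17.2% of the counts of both genes in KR mouse 3 (exact 95% binomial interval 16.1% to 18.4%) and 11.2% in KN1 mouse 3 (9.96% to 12.5%). It made up 2.07%, 1.60% and 1.76% in KR mice 1, 4 and 5, against 0.228% and 0.0944% in KR controls 4 and 6. In LR the groups overlapped, with shares of 0% to 0.499% in LR mice against 0% to 0.169% in LR controls. In KN1 mice 1, 2 and 4 the share was 0.546% to 0.991%, against 0.0515% and 1.77% in KN1 controls 1 and 7. These intervals cover counting error only, and ambiguous reads may shift the share. The miRNA gene Gm44383, annotated on the opposite strand inside Krt6b, had 72 counts in KR mouse 3 and 26 in KN1 mouse 3, also its highest counts.

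Krt6a, the more abundant type II stress keratin, overlapped between mutants and controls in every cohort. It had 112, 337, 113 and 132 CPM in KR mice 1, 3, 4 and 5, against 84.5 and 191 CPM in KR controls 4 and 6. KR mouse 3 alone lay above both controls. Its log2 fold change was 0.34 ± 0.63 (adjusted p = 0.778), and its sign turned without KR mouse 3, to -0.20, and without KR control 4.

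In LR, Krt6a had 101, 149 and 408 CPM in LR mice 1, 2 and 3, against 140, 60.8 and 76.9 CPM in LR controls 2, 3 and 5. LR mouse 3 had the highest level of all 18 mice, and LR mouse 1 lay below LR control 2. This cohort's log2 fold change was 1.25 ± 0.59 (adjusted p = 0.335), and 0.44 without LR mouse 3. In KN1, Krt6a had 180, 379, 305 and 333 CPM in KN1 mice 1 to 4, against 99.0 and 229 CPM in KN1 controls 1 and 7. Here 3 of 4 KN1 mice lay above both controls, and the log2 fold change was 0.87 ± 0.64 (adjusted p = 0.493). The mean of the 3 effects was 0.82 ± 0.36 (adjusted p = 0.117). With the counts of Krt6a and Krt6b added into 1 row, which removes the question of how reads were split between them, the log2 values were 0.49 in KR, 1.25 in LR and 0.91 in KN1, and none passed.

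Krt17, a type I keratin of the hair follicle's outer layers, was abundant in every mouse and had the smallest fitted log2 fold change of the 4 keratins in each cohort. It had 2049, 2653, 2366 and 2312 CPM in KR mice 1, 3, 4 and 5, against 1936 and 2717 CPM in KR controls 4 and 6. All KR mice lay between the controls, and the log2 fold change was 0.01 ± 0.23 (adjusted p = 0.982). It had 2463, 1695 and 2021 CPM in LR mice 1, 2 and 3, against 1659, 1491 and 1152 CPM in LR controls 2, 3 and 5. Every LR mouse lay above every LR control (as for 10.3% of all genes tested), narrowly so for LR mouse 2, with a log2 fold change of 0.52 ± 0.21 (unadjusted p = 0.0251, adjusted p = 0.243).

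In KN1 mice 1 to 4, Krt17 had 2703, 4789, 3542 and 3988 CPM, against 2202 and 3189 CPM in KN1 controls 1 and 7. KN1 mouse 1 lay between the controls and the others above both. The log2 fold change was 0.48 ± 0.23 (adjusted p = 0.275), and the mean of the 3 effects was 0.34 ± 0.13 (adjusted p = 0.0693). That mean passed when KN1 mouse 1 was left out (0.38, adjusted p = 0.0338). Markers of the upper hair follicle, 7 genes summed, stood at 3211 to 3561 CPM in KR mice against 2464 to 3888 CPM in KR controls. They stood at 1442 to 2215 CPM in LR mice against 2172 to 2690 CPM in LR controls, and at 2893 to 5372 CPM in KN1 mice against 2750 to 3890 CPM in KN1 controls. Gata6, a transcription factor of the upper follicle on the same list and named here after its values were seen, went the other way from that sum in LR. It had 110, 67.3 and 137 CPM in LR mice 1, 2 and 3, against 30.6, 42.7 and 44.6 CPM in LR controls 2, 3 and 5, and rose by 1.41 ± 0.21 on the log2 scale (adjusted p = 0.00159). That call held when each mouse was left out, and was lost with the LR batch fitted alone (adjusted p = 0.0737). The part of these markers in the Krt17 values was not tested.

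Across all keratins, levels per kilobase of exon put the 4 genes far apart. In the 7 controls Krt17 averaged 1321 ± 460 CPM per kilobase (SD), Krt6a 52.0 ± 26.2, Krt16 15.3 ± 11.6 and Krt6b 0.312 ± 0.677. In the 11 mutants Krt17 averaged 1793 ± 607 CPM per kilobase, Krt6a 95.8 ± 49.7, Krt16 53.8 ± 43.2 and Krt6b 5.05 ± 10.0. The order was the same in both sets. The spread of Krt6b exceeded its mean in both, because 1 control and 2 mutant mice held most of its counts.

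S100a8 and S100a9 were near the limit of detection in all 18 mice. S100a8 had counts of 1, 5, 8 and 7 in KR mice 1, 3, 4 and 5, against 9 and 10 in KR controls 4 and 6. It had 8, 2 and 6 counts in LR mice 1, 2 and 3, against 2, 2 and 1 in LR controls 2, 3 and 5, and 6, 12, 6 and 2 counts in KN1 mice 1 to 4, against 3 and 1 in KN1 controls 1 and 7. The highest level was 1.39 CPM, in KN1 mouse 2.

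Scaled to library size, S100a8 was higher in all 4 KN1 mice than in both KN1 controls, with 0.230 to 1.39 CPM in KN1 mice against 0.109 to 0.153 CPM in their controls. Of all genes that passed the filter, 13.8% were likewise higher in every KN1 mouse, and S100a8 rests on few counts. KR control 6, with 0.901 CPM, had the second-highest level of all mice. S100a8 failed the filter, so it was tested in a fit without one. There S100a8 had a log2 fold change of -0.26 ± 0.72 in KR mice (adjusted p = 0.880), whereas LR mice had 1.49 ± 0.84 (adjusted p = 0.465). KN1 mice had 2.42 ± 0.88, with an unadjusted p of 0.0126 and an adjusted p of 0.177. The mean of the 3 effects was 1.21 ± 0.47 (adjusted p = 0.0828).

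S100a9 had counts of 6, 7, 2 and 3 in KR mice 1, 3, 4 and 5, against 1 and 9 in KR controls 4 and 6. It had 6, 1 and 4 in LR mice, against 6, 5 and 1 in LR controls, and 2, 2, 18 and 11 in KN1 mice 1 to 4, against 0 and 10 in KN1 controls 1 and 7. The groups overlap in all 3 cohorts. Log2 fold changes were 0.33 ± 1.24 in KR, -0.28 ± 1.25 in LR and 1.19 ± 1.21 in KN1 (adjusted p = 0.898, 0.938 and 0.634), each with a standard error about as large as the value or larger. The KR and LR signs turned when a mouse was left out (0.33 became -0.77 without KR control 4, and -0.28 became 0.21 without LR mouse 2), as did that in KN1 (-0.07 without KN1 control 1).

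The 2 subunits did not keep 1 ratio: S100a8 outnumbered S100a9 in KR control 4 by 9 counts to 1 and in KN1 mouse 2 by 12 to 2, and S100a9 outnumbered S100a8 in KN1 mouse 3 by 18 to 6 and in KN1 mouse 4 by 11 to 2. Over all mice, S100a8 had 63 counts in 11 mutants and 28 in 7 controls, and S100a9 had 62 in mutants and 32 in controls. The mean level of S100a8 was 0.627 ± 0.366 CPM in mutants and 0.307 ± 0.286 CPM in controls (SD), and that of S100a9 was 0.658 ± 0.693 CPM in mutants and 0.473 ± 0.429 CPM in controls. At these counts a difference short of several fold is not detectable.

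**Figure D3:**
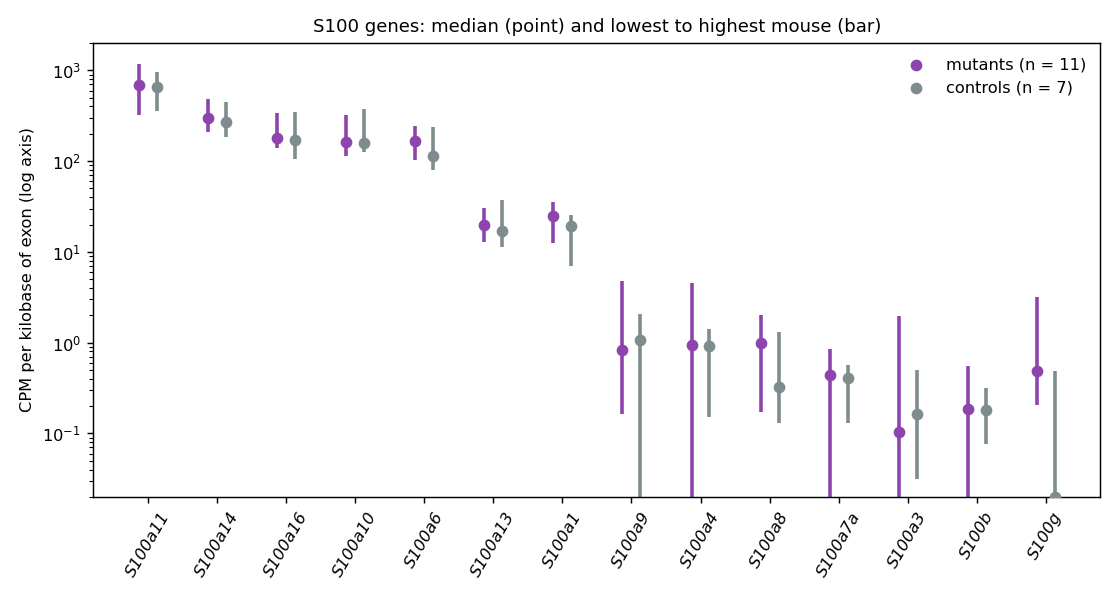
Levels of 14 S100 genes in CPM per kilobase of exon on a log axis, with a point at the median and a bar from the lowest to the highest mouse, for 11 mutants and 7 controls; values of 0 are drawn at the lower edge. S100a11, at a median of 686 in mutants and 658 in controls, stands far above S100a8, at 0.995 in mutants and 0.326 in controls.

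Other S100 genes were plentiful in the same libraries. Of 16 on the list, 13 were in the table and 10 passed the filter; the list includes S100pbp, whose product binds an S100 protein and is not one, and which is left out of the plot of S100 levels. None of the 10 passed the test in any mutant or in the mean of the 3 effects, by edgeR or by DESeq2. An unadjusted p under 0.05 was reached by 2 in KR, 0 in LR, 1 in KN1 and 1 in the mean. S100a11, a keratinocyte S100 protein, had a median of 686 CPM per kilobase in mutants and 658 in controls, where S100a9 had 0.826 in mutants and 1.08 in controls. S100a14 had 299 CPM per kilobase in mutants and 271 in controls, and S100a6, known from dividing cells, had 167 in mutants and 114 in controls.

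The promoters of S100a8 and S100a9 are printed because Rbpj, the deleted factor in KR and LR, binds a known short sequence, and because this pair differs in holding it. The sequences are the 250 bases before each start in RefSeq (GRCm38.p6), S100a8 at 3:90668821-90669070 on the plus strand and S100a9 at 3:90695722-90695971 on the minus strand. The S100a8 window runs past the GENCODE start at 3:90668978, so its last part lies inside the gene as placed above. The S100a9 window ends next to its GENCODE start. Of the 6 genes, 2 were in the promoter table used. Both strands were searched for 7 motifs, and the matches are in capitals.
S100a8: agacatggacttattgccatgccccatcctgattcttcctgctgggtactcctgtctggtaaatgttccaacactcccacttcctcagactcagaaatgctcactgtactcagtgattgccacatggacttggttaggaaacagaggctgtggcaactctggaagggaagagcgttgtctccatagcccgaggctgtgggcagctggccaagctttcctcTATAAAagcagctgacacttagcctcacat
S100a9: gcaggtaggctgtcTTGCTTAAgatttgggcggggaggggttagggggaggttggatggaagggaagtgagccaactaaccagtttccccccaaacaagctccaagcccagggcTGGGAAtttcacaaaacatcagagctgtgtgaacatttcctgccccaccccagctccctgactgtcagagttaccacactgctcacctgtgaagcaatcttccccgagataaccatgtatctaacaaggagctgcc

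The capitals in S100a8 mark a TATA box, TATAAA, 30 to 25 bases before the RefSeq start, in the part inside the GENCODE gene (held by 12.4% of the 32851 promoters of this length). Those in S100a9 mark a C/EBP motif, TTGCNNAA, 236 to 229 bases before the start (held by 9.6% of promoters), and the RBPJ motif TGGGAA, 136 to 131 bases before it (held by 21.6%). No match was found in either window for the AP-1 motif TGANTCA (6.7% of promoters), the STAT motif TTCNNNGAA (7.0%), the NF-kB motif (1.4%) or the antioxidant response element TGANNNNGC (35.2%). A match is a run of letters, not a measured site, and S100a9 did not pass in either Rbpj mutant.

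Read as a group, none of the 5 tested genes passed in KR, where 1.60% of all 16517 genes tested did, none in LR (1.12% of all) and none in KN1 (1.97% of all). At an unadjusted p under 0.05 there were 2 in KR (Krt6b and Krt16), 1 in LR (Krt17) and 0 in KN1. DESeq2 called 1 in KR (Krt16) and none in LR or KN1. The median log2 fold change of the 5 was 0.34 in KR, 1.15 in LR and 1.19 in KN1, beside 0.04, -0.00 and 0.02 over all genes tested. Every mutant mouse lay above every control for 2 of the 5 in KR (19.0% of all genes tested), for 2 in LR (10.3%) and for 0 in KN1 (13.8%).

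**Figure D4:**
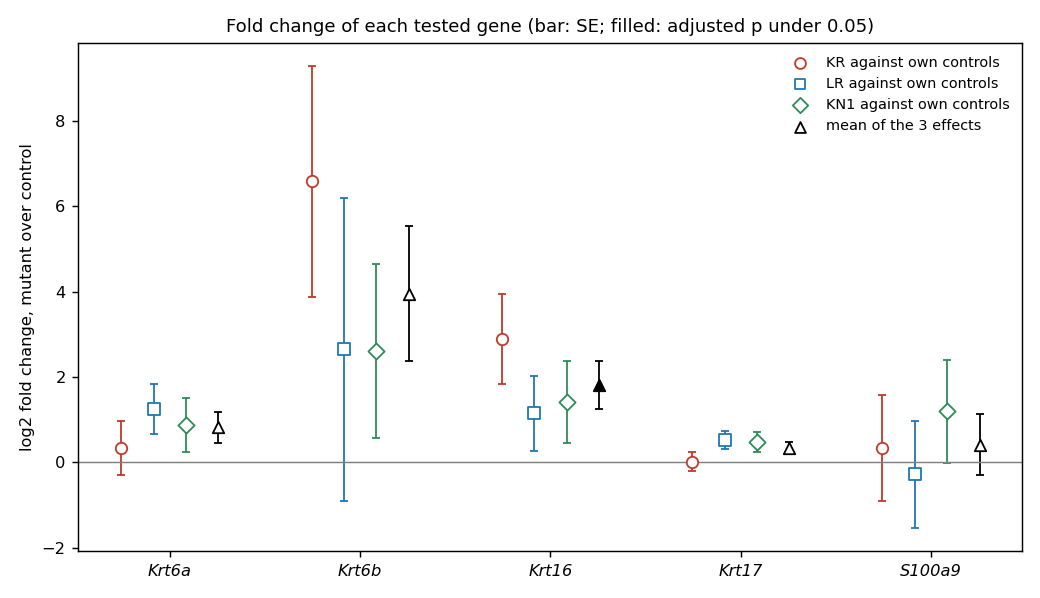
Log2 fold change of the 5 tested genes in each mutant over its own controls and as the mean of the 3 effects, with bars of 1 SE. The 1 filled symbol, with an adjusted p under 0.05, is the mean effect on Krt16 at 1.82, and the bars of Krt6b are the widest.

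The mutants were also set against each other, by testing whether an effect in one differed from that in another. The KR effect minus the LR effect was 1.74 ± 1.30 for Krt16, 3.94 ± 6.28 for Krt6b, -0.91 ± 0.84 for Krt6a, -0.51 ± 0.31 for Krt17 and 0.61 ± 1.76 for S100a9. None of the 5 passed, and 0.00605% of all genes did. The KR effect minus the KN1 effect was 1.48 ± 1.31 for Krt16, 3.98 ± 3.35 for Krt6b, -0.53 ± 0.87 for Krt6a, -0.47 ± 0.32 for Krt17 and -0.86 ± 1.76 for S100a9. None passed here either, with 0% of all genes; 1251 of the 16517 genes had an unadjusted p under 0.05, and DESeq2 called 38. The LR effect minus the KN1 effect was -0.26 ± 1.26 for Krt16, 0.04 ± 1.25 for Krt6b, 0.37 ± 0.85 for Krt6a, 0.04 ± 0.31 for Krt17 and -1.48 ± 1.75 for S100a9, again with none passing (0.00605% of all genes). For Krt6b, the SE of 1.25 is smaller than those of the LR and KN1 effects themselves (3.55 and 2.04). That SE was derived from the F statistic and is not a dependable measure of the uncertainty. Leaving out a mouse gave values from -4.82 to 2.35 for this Krt6b difference. None of these differences in the 5 genes had an unadjusted p under 0.05, and DESeq2 called none. In all 3 sets the smallest adjusted p of the 5 genes was 0.762. S100a8, which failed the filter, was compared in the fit without one. There its KR effect minus its KN1 effect was -2.68 ± 1.13 (unadjusted p = 0.0277, adjusted p = 0.706). That difference did not pass and rests on few counts. Its KR effect minus its LR effect was -1.75 (adjusted p = 0.985). Its LR effect minus its KN1 effect was -0.93 (adjusted p = 0.944). After adjustment, the differences were thus smaller than the spread between mice could resolve, which does not show that the mutants act alike.

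All pairs of the 4 keratins correlated positively from mouse to mouse, to different degrees. After the group means were removed, the correlation of log2 CPM over the 18 mice was 0.80 between Krt6b and Krt16 and 0.75 between Krt6a and Krt6b. It was 0.58 between Krt6a and Krt16, 0.53 between Krt6a and Krt17, 0.42 between Krt16 and Krt17 and 0.27 between Krt6b and Krt17. S100a9 followed Krt16 at 0.84 and Krt6b at 0.59, although its counts are sparse. These values describe mice that share batches, depth and the make-up of the scraped tissue, and KR mouse 3 and KN1 mouse 3 weigh heavily in those that involve Krt6b.

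The genes most like each member by the same measure were also listed. For Krt16 they were Efhd2 (0.94), Sprr1b, a cornified envelope protein (0.94), and Bcl3, a nuclear member of the IkB family (0.93). Krt17 was followed most closely by Krt79, a keratin of the upper hair follicle (0.96), the secreted protease Klk6 (0.95) and the envelope protein Sprr1a (0.92). For Krt6a the closest were RP24-180L12.9 and Gm44342 (0.98 each), then the glutamine transporter Slc1a5 (0.92). Gm44342 lies inside Krt6a, and RP24-180L12.9, a name that the annotation used here does not hold, had counts equal to 37.3% to 53.7% of those of Krt6a in every mouse. For Krt6b they were Gm44383 (0.92), which lies inside it, RP24-83D14.2 (0.90) and the threonyl-tRNA synthetase Tars (0.87); with a prior count of 0.5 in place of 2 their order turned, to 0.89 for Tars, 0.85 for Gm44383 and 0.84 for RP24-83D14.2. For S100a9 they were Fam214b (0.91), Serpinb6c (0.90) and the chemokine Cxcl16 (0.90).

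Other keratins were read in the same comparisons. Of the 3 basal and stem cell keratins, Krt14, the basal partner of Krt5, rose in KR, by 0.82 ± 0.16 on the log2 scale (adjusted p = 0.0211), a call that was lost without KR control 6 (adjusted p = 0.334), KR control 4 (0.0808), KR mouse 3 (0.0735) or KR mouse 5 (0.0621), with the 7 controls pooled (0.0552), and without KR control 6, LR control 5 and KN1 control 7 together (0.151). None of the 3 passed in LR or KN1 (2 and 0 at an unadjusted p under 0.05, 2 and 0 by DESeq2). In the mean of the 3 effects, in which 21.7% of all genes passed, Krt14 rose by 0.48 ± 0.09 (adjusted p = 0.00161) and Krt5 rose by 0.25 ± 0.07 (adjusted p = 0.0205), while the follicle stem cell keratin Krt15 fell by 0.34 (adjusted p = 0.0250).

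Of the 6 suprabasal keratins, made by cells that have left the basal layer, 3 fell in that mean: Krt1 by 0.81 (adjusted p = 0.0135), Krt78 by 0.63 (adjusted p = 0.0376) and Krt80 by 0.53 (adjusted p = 0.00933). Their median was -0.47, beside 0.03 over all genes tested. In the single mutants none of the 6 passed: 2 in KR, 1 in LR and 1 in KN1 had an unadjusted p under 0.05, and DESeq2 called none. Krt10, the partner of Krt1, had -0.41 ± 0.20 (adjusted p = 0.138). The summed level of these 6 keratins was 19320 to 39315 CPM in KR mice, against 41049 to 42449 CPM in their controls. It was 16715 to 35597 CPM in LR mice against 31559 to 44328 CPM in controls, and 37588 to 51053 CPM in KN1 mice against 47785 to 54423 CPM in controls. Of 10 other epithelial keratins tested, Krt4 and Krt7 rose and Krt23 fell in the mean, in which 21.7% of all genes tested passed. Among these keratins, the calls of Krt14, Krt80 and Krt23 in the mean held when each mouse was left out in turn. The others were lost without at least 1 mouse: Krt1 without KN1 control 7 (adjusted p = 0.0648), Krt5 without KR control 6 or KN1 control 1 (0.102 and 0.0550), Krt15 without KN1 control 7 or KR control 4 (0.0733 and 0.0613), Krt7 without KN1 control 7 or KR control 6 (0.0848 and 0.0776), Krt4 in 8 of 18 omissions and Krt78 in 11 of 18, with an adjusted p up to 0.115 and 0.116.

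Antimicrobial and alarm genes of keratinocytes differed widely in reads: Il1rn had 268 to 1749 counts per mouse, and Il1b had 4 to 43. Of 14 tested, 5 rose and 1 fell in the mean of the 3 effects, where 21.7% of all genes passed, and 1, the neutrophil chemokine Cxcl1, rose in KR (adjusted p = 0.0329), where 1.60% of all did. The summed level of the 17 in the table was lower in every KR mouse than in both controls, at 309 to 395 CPM in KR mice against 400 to 483 CPM in KR controls. It overlapped in the other cohorts, at 212 to 418 CPM in LR mice against 303 to 411 CPM in LR controls, and 330 to 583 CPM in KN1 mice against 417 to 680 CPM in KN1 controls. Such a sum is weighted to the most abundant genes. The median log2 fold change of the 14 tested in KR was above 0, at 0.73, beside 0.04 over all genes tested. In KR, 7 of the 14 had an unadjusted p under 0.05, beside 3780 of all 16517 genes, and DESeq2 called 2 of them. Cxcl1 had counts of 2, 8, 8 and 11 in KR mice, against 0 and 0 in the KR controls; LR and KN1 controls had 6 to 17. It had 166 counts in all mutants against 56 in all controls. Its call in KR was lost without KR control 6 (adjusted p = 0.293), KR control 4 (0.141), KR mouse 3 (0.0876) or KR mouse 5 (0.0833), and without KR control 6, LR control 5 and KN1 control 7 together (0.150). With the 7 controls pooled, the log2 value of Cxcl1 in KR was 0.049 (adjusted p = 0.978). In the mean, the cytokine Il1b rose by 1.24 ± 0.30 (adjusted p = 0.00808, 207 counts in mutants and 71 in controls) and Il1rn, the secreted antagonist of the same receptor, fell by 0.50 (adjusted p = 0.0179). Ccl20, a chemokine, rose by 1.26 (adjusted p = 0.0391), a call that held in only 7 of 18 omissions of a mouse. Il1rn lost its call without KN1 control 7 or KR control 4 (adjusted p = 0.101 and 0.0510). The median of the 14 in the mean of the 3 effects was 0.39. In LR and KN1 none passed, with 1 and 0 at an unadjusted p under 0.05 and none by DESeq2.

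Among receptors, 1 of 7 and 4 of 17 passed in that mean, shares near the 21.7% of all genes. Of 7 receptors or binding partners of S100a8 and S100a9, Ager, which encodes the receptor RAGE, rose by 1.36 ± 0.34 (adjusted p = 0.00989), and none of the others passed. Of 17 cytokine receptors, 1 rose, the IL-36 receptor chain Il1rl2, by 0.28 (adjusted p = 0.00606). Another 3 fell: Il1rap by 0.45 (adjusted p = 0.0120), Il22ra1 by 0.59 (adjusted p = 0.0176) and Il20rb by 0.33 (adjusted p = 0.0324). The calls of Ager and Il1rl2 held when each mouse was left out. No receptor of either list was called in a mutant on its own by edgeR; of the 7, an unadjusted p under 0.05 was reached by 3 in KR, 0 in LR and 3 in KN1, and of the 17 by 5, 5 and 3. DESeq2 called 1 of the 7 in KR and 2, 1 and 2 of the 17. Il1rap was lost without KR control 6 (adjusted p = 0.0521), Il22ra1 without KR control 6 or KN1 control 7 (0.0690 and 0.0663), and Il20rb in 7 of 18 omissions, with an adjusted p up to 0.0992.

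Of 26 transcription regulators that act on stress keratin or S100 genes, 9 rose in the mean and none fell. None passed in a mutant on its own by edgeR; 8 in KR, 8 in LR and 5 in KN1 had an unadjusted p under 0.05, and DESeq2 called 3, 1 and 3. Their median was 0.28, beside 0.03 over all genes tested, and 9 of 26 stand beside a background of 21.7% in both directions together. Nfkbiz, a nuclear co-regulator of NF-kB targets, rose by 1.00 ± 0.19 (adjusted p = 0.00278). It had 71.1, 60.7, 53.0 and 48.5 CPM in KR mice, against 23.4 and 25.2 CPM in KR controls, and the groups did not overlap in any of the 3 cohorts. Every mutant mouse lay above every control for 19.0% of all genes tested in KR, 10.3% in LR and 13.8% in KN1. The share that did so in all 3 cohorts was not counted. Nfkb1, a DNA-binding subunit of NF-kB, rose by 0.29 (adjusted p = 0.00738). The hedgehog pathway factors Gli2 and Gli1 rose by 0.60 (adjusted p = 0.00778) and 1.12 (adjusted p = 0.00970). These 4 calls held when each mouse was left out in turn.

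Markers of other cells were read beside these values. Of 16 neutrophil markers, 6 were in the table, and the 10 others, Ly6g and Elane among them, were not analysed here. Mpo, the granule enzyme among the 6, had 0 to 3 counts in every mouse. The 6 summed to 130 to 156 CPM in KR mice against 114 to 133 CPM in KR controls, to 100.0 to 118 CPM in LR mice against 102 to 121 CPM in LR controls, and to 140 to 209 CPM in KN1 mice against 143 to 174 CPM in KN1 controls, most of it from Il1r2, Ltb4r1 and Mmp9. Of the 5 tested, 1 rose in the mean of the 3 effects, in which 21.7% of all genes tested passed, so 1 of 5 is near the background. It was Ltb4r1, a leukotriene receptor named after its values were seen, at 0.44 ± 0.12 (adjusted p = 0.0161). That call was lost without KR control 6, and with the 7 controls pooled (adjusted p = 0.0623). The sum of the 6 monocyte and macrophage markers in the table was higher in every KR mouse than in both controls, at 78.8 to 108 CPM in KR mice against 40.6 to 70.0 CPM in KR controls. Among single genes tested, 19.0% were higher in every KR mouse. Of the 5 of these markers tested, 2 had an unadjusted p under 0.05 in KR. In KR edgeR called 0 of them and DESeq2 called 1. The sums overlapped in the other cohorts, at 47.8 to 64.4 CPM in LR mice against 42.6 to 67.6 CPM in LR controls, and 46.4 to 60.8 CPM in KN1 mice against 59.6 to 82.2 CPM in KN1 controls. The part of the neutrophil, monocyte and macrophage markers in the S100a8, S100a9 and keratin values was not tested.

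Genes of the growing hair varied widely within groups. The summed level of 20 hair matrix, hair shaft and inner root sheath genes was 29.7, 213, 680 and 1168 CPM in KR mice 1, 3, 4 and 5, against 38.2 and 634 CPM in KR controls 4 and 6. It was 37.9, 1134 and 45.6 CPM in LR mice, against 671, 28.6 and 17.9 CPM in LR controls, and 58.9, 1146, 59.9 and 341 CPM in KN1 mice 1 to 4, against 34.4 and 26.05 CPM in KN1 controls. In KN1 every mutant lay above both controls, and among single genes tested 13.8% were likewise higher in every KN1 mouse. None of the 20 genes passed in KN1 by edgeR, and DESeq2 called 4. With this list as a covariate, an alternative chosen after the data were seen, the mean effect on Krt16 was 1.83 with an adjusted p of 0.0517, and Krt16, Krt6b and Krt6a kept positive values in each mutant. KN1 mouse 3, with the highest Krt16, had 59.9 CPM of these genes and KR mouse 3, with the next highest, had 213.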

How the data were processed

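The authors deposited 1 table of raw counts per gene, 21011 genes by 18 mice, each column matched to a mouse by name. Per the submitters' processing notes, STAR, HTSeq and DESeq2 were used with mm10, with no versions; which tool made the deposited counts, and whether strand was used, is not stated there or in the labels. Every deposited row had a total of at least 18.

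CPM used TMM factors. The main test was edgeR 4.0.16 (R 4.3.3), a quasi-likelihood F test on 6 group means over all 18 mice, two-sided, with filterByExpr (16517 genes kept) and Benjamini-Hochberg adjustment over them at 0.05. The common biological coefficient of variation was 0.225, and groups of 2 controls take their spread from all mice. Standard errors come from the F statistic, and for sparse counts such as those of Krt6b they are rough. Correlations used log2 CPM with a prior count of 2. The labels give each sample as 1 mouse, so p-values measure the spread between mice. The scripts were tested on simulated counts. The genes and lists were chosen with earlier results of these data known, so they are not independent support. Genes outside the 6 were named by rule: up to 4 per list by adjusted p among those that passed, and the 3 most alike to each member. Alternatives were DESeq2 1.42.0, scaling by RLE, keeping all genes, a minimum mean CPM of 1, each batch alone, the 7 controls pooled, a replicate block in LR and each mouse left out. KR control 6, LR control 5 and KN1 control 7 carry a second name in the labels and were also left out together. Positions and exon lengths come from GENCODE M21, and 15418 rows carry a symbol found there.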

Additional observations from a re-analysis of the deposited data

Results flagged for a closer look

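In groups of 4 mice, the highest or lowest mouse was compared with the rest by its gap to the nearest mouse as a share of the group's whole range. Over the 6 genes in KR and KN1 this made 12 groups. Chance singles out a mouse in about 1 in 20 such groups if the values are normally distributed. The CPM were not on a log scale, and whether that rate holds for sparse genes such as Krt6b was not tested. KR mouse 3 stood apart from the other KR mice for Krt6b, at 70.1 CPM with a gap of 0.992 of the range, and for Krt6a, at 337 CPM with a gap of 0.909. KN1 mouse 3 stood apart from the other KN1 mice for Krt6b, at 38.3 CPM with a gap of 0.947. Groups of 2 and 3 were not examined this way.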

How the results depend on the processing

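Counts of genes passing depended strongly on the test and the controls. With DESeq2 they were 1086 in KR, 547 in LR and 820 in KN1, and 4, 38 and 67 for the differences KR minus LR, KR minus KN1 and LR minus KN1. With each batch fitted alone they were 672, 66 and 98. With all 7 controls pooled, which mixes batches, they were 809, 1052 and 1867, 1828 for the mean effect, and 32, 134 and 692 for the differences. Without the second-named controls they were 32 in KR, 41 in KN1, 1125 for the mean, and 8 and 21 for KR minus LR and LR minus KN1. The hair list covariate gave 160 in KN1, and no filter gave 3 for LR minus KN1. Leaving out a mouse gave 5 to 1353 in KR, 60 to 246 in LR, 2 to 640 in KN1, 2163 to 3997 for the mean, and 1 to 8, 0 to 3 and 1 to 13 for the differences.

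Of the stress keratins and S100a9, DESeq2 called 1 in KR (Krt16), and pooling the controls called 2 in KN1, Krt16 at 2.06 (adjusted p = 0.0444) and Krt17 at 0.88 (adjusted p = 0.0228). In the mean effect 0 were called without the second-named controls (Krt16 at 2.21, adjusted p = 0.113) and 0 with the hair list covariate, and 0 to 2 when a mouse was left out. Krt16 kept its call in that mean under DESeq2 (1.80), RLE scaling, all genes kept, a minimum mean CPM of 1 and pooled controls. Among other named genes whose call in the mean held when each mouse was left out, Ager, Il1b, Krt80 and Krt23 were no longer called without the second-named controls, nor were Nfkbiz, Ager, Cxcl1, Il1rl2 and Krt14 with the controls pooled. The causes were not tested.

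Some directions turned. The hair list covariate gave -0.033 for Krt17 in KR and -0.62 for Krt6b in LR minus KN1. Pooled controls gave 0.21 for Notch1 in LR, 0.19 for Krt17 in KR minus LR, -0.038 for Krt16 in KR minus KN1, and -0.45, -3.91 and -0.87 for Krt6a, Krt6b and Krt17 in LR minus KN1. Without the second-named controls, Notch1 in LR was 0.017, Krt6b in KR minus KN1 was -0.95, and Krt6a, Krt6b and Krt17 in LR minus KN1 were -0.47, -4.95 and -0.38. Leaving out a mouse gave ranges that cross 0: in KR, -0.20 to 1.01 for Krt6a, -0.22 to 0.25 for Krt17 and -0.77 to 2.99 for S100a9; in LR, -0.82 to 0.21 for S100a9 and -0.11 to 0.033 for Notch1; in KN1, -0.066 to 6.49 for S100a9; and -0.0085 to 2.17 for S100a9 in the mean. For KR minus LR, S100a9 ran from -0.49 to 3.27. For KR minus KN1, Krt6a ran from -1.28 to 0.16, Krt6b from -0.92 to 6.29 and S100a9 from -6.19 to 1.83. For LR minus KN1, Krt6a ran from -0.44 to 0.86, Krt6b from -4.82 to 2.35, Krt16 from -1.60 to 0.45 and Krt17 from -0.24 to 0.29.

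With a replicate block in LR, where mutants and controls share the numbers 2 and 3, 137 genes and 0 of these genes were called. Deviations of same-numbered mice correlated at 0.07 and -0.08, and those of differently numbered mice at -0.14 to 0.22. So few pairs cannot decide whether the numbers pair the mice, and the labels do not say that they do. KR and KN1 share only 1 number with their controls, so no block could be fitted there. S100a8 and S100a9, at counts of 0 to 18 per mouse, are limited by depth.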
